A study of Mus musculus with 16 samples.

Results

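Expression of 10 genes of phospholipid hydrolysis and prostaglandin metabolism was examined in the intestinal epithelium of mice before and after weaning. The genes were taken by symbol from a list that was chosen with earlier results of these data known. They were Pla2g2f, Pla2g3, Pla2g5, Pla2g10, Pla2g4a, Plb1, Ptgs2, Ptges, Hpgd and Ggt1. All 10 were found among the 24421 genes of the count tables. Of these, 9 had enough counts to be tested together with 13429 genes in all, and Ptgs2 did not.

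The 16 libraries came from wild-type C57BL6/J mice, 4 at postnatal day 6 (P6) and 4 at postnatal day 36 (P36), with 2 females (mice 1 and 2) and 2 males (mice 3 and 4) at each age. Each mouse gave a segment of jejunum and of ileum, from which the epithelium was loosened with EDTA and shaken free, so the 4 groups of P6 jejunum, P6 ileum, P36 jejunum and P36 ileum each held 4 libraries. No allele or agent differed between the groups. Because bulk RNA was measured, fewer cells of a type and less RNA per cell cannot be told apart.

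Phospholipases A2 release fatty acids such as arachidonic acid from the middle position of membrane and dietary phospholipids, and secreted forms act outside the cell while cytosolic forms act on internal membranes. Cyclooxygenases convert arachidonic acid to prostaglandin H2, from which prostaglandin E synthase makes prostaglandin E2, and 15-hydroxyprostaglandin dehydrogenase inactivates the product. In the gut, prostaglandin E2 is known for its part in mucosal protection and repair, and luminal phospholipases for lipid digestion and antibacterial defence.

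The promoters of 3 members are shown. Pla2g5 had the largest age difference in each region, Hpgd had among the largest in the jejunum alone, and Pla2g2f lies in the gene cluster of Pla2g5. Each printed window is the 250 bases before a RefSeq transcription start in GRCm38.p6, written 5′ to 3′ on the strand of the gene. Capitals mark a match to AGATAA.
Pla2g2f, chr4:138757599-138757848, minus strand: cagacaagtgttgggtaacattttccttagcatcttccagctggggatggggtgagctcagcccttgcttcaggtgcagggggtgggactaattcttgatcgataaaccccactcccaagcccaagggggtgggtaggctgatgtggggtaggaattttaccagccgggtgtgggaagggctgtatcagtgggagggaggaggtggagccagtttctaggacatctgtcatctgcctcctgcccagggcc
Pla2g5, inner start, chr4:138819258-138819507, minus strand: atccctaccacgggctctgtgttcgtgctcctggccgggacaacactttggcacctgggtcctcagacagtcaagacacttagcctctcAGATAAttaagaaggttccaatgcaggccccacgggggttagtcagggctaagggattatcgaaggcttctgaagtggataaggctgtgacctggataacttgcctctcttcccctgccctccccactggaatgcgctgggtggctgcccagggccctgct
Pla2g5, outer start, chr4:138863470-138863719, minus strand: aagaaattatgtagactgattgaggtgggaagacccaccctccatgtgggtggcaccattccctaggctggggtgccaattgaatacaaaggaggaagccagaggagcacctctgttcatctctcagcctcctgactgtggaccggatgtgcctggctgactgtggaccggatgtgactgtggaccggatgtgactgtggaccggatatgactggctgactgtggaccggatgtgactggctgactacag
Hpgd, chr8:56294302-56294551, plus strand: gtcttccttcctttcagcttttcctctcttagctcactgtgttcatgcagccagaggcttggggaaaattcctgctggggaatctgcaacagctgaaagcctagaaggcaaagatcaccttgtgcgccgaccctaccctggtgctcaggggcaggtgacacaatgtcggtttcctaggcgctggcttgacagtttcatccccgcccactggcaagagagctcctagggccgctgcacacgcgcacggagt
RefSeq promoters were found for 9 of the 10 genes, with 15 starts between them. The letters searched were AGATAA and TTTATG on either strand and TATAAA on the strand of the gene, which occurred in 9.99%, 10.8% and 7.59% of 32851 promoter windows of this length. Of the 4 printed windows, the inner start of Pla2g5 held AGATAA, beginning at position -161, and no other match was present in them. Of the windows not printed, one of Plb1 held TTTATG at position -184 and one of Ggt1 held AGATAA at position -97.

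Pla2g2f and Pla2g5 belong to a cluster of 6 secreted phospholipase genes that spans 157.5 kb at chr4:138725325-138882814 (mm10). Pla2g2f (chr4:138750533-138757598) and Pla2g5 (chr4:138799247-138863469) are 41648 bp apart on the minus strand. Pla2g2a, on the plus strand, lies inside the span of Pla2g5, and their exons share 0 bases. Pla2g4a (chr1:149829619-149961290, minus strand) and Ptgs2 (chr1:150100124-150108012, plus strand) are neighbours separated by 138833 bp. The other members lie on separate chromosomes, with Pla2g3 at chr11:3488227-3494166, Pla2g10 at chr16:13715057-13730983, Plb1 at chr5:32232708-32364356, Ptges at chr2:30889471-30903297, Hpgd at chr8:56294552-56321046 and Ggt1 at chr10:75568662-75586191.

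Library totals ran from 12159237 to 25947276 counts. Epithelial markers were abundant in every library, with 7 genes (Epcam, Cdh1, Krt8, Krt18, Krt19, Cldn7 and Vil1) summing to 4017 to 16251 CPM, the counts scaled to library size. Several ileal libraries stood apart. In the ileum of P6 mouse 2, 8 fibroblast and smooth muscle markers summed to 404 CPM, against 4.31 to 40.7 CPM in the other 15 libraries. Enterocyte markers of the P36 ileum ranged from 5117 CPM in mouse 3 to 32990 CPM in mouse 1, and Paneth cell markers from 5424 CPM in mouse 2 to 15143 CPM in mouse 3. In the ileum of P6 mouse 4, Krt8 was at 256 CPM, against 1113 to 1331 CPM in the ileum of the other P6 mice. Krt19 was at 35.7 CPM there, against 268 to 354 CPM, and Vil1 at 752 CPM, against 1444 to 1546 CPM. Epcam was at 1747 CPM, against 1834 to 2139 CPM, and Cdh1 at 867 CPM, against 792 to 848 CPM. Over all genes, pairs of P6 ileum libraries with mouse 4 had a chi-square per gene of 226 to 272, against 20.4 to 41.0 for the other pairs. P6 mice 2 and 4 share the first part of their names, as do mice 1 and 3, and the labels do not say what it marks. The Paneth cell marker sum at P6 split along it over both regions. It was 29.0 to 87.6 CPM in mice 2 and 4 and 473 to 814 CPM in mice 1 and 3. Most of the higher sums was Itln1, at 435 to 782 CPM in mice 1 and 3 and 4.36 to 10.3 CPM in mice 2 and 4. Lyz1 was at 7.82 to 20.3 CPM in mice 1 and 3 and 6.03 to 17.7 CPM in mice 2 and 4. Mmp7 was lower in mice 1 and 3 in each region, while Cd14 was higher in them.

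**Figure D1:**
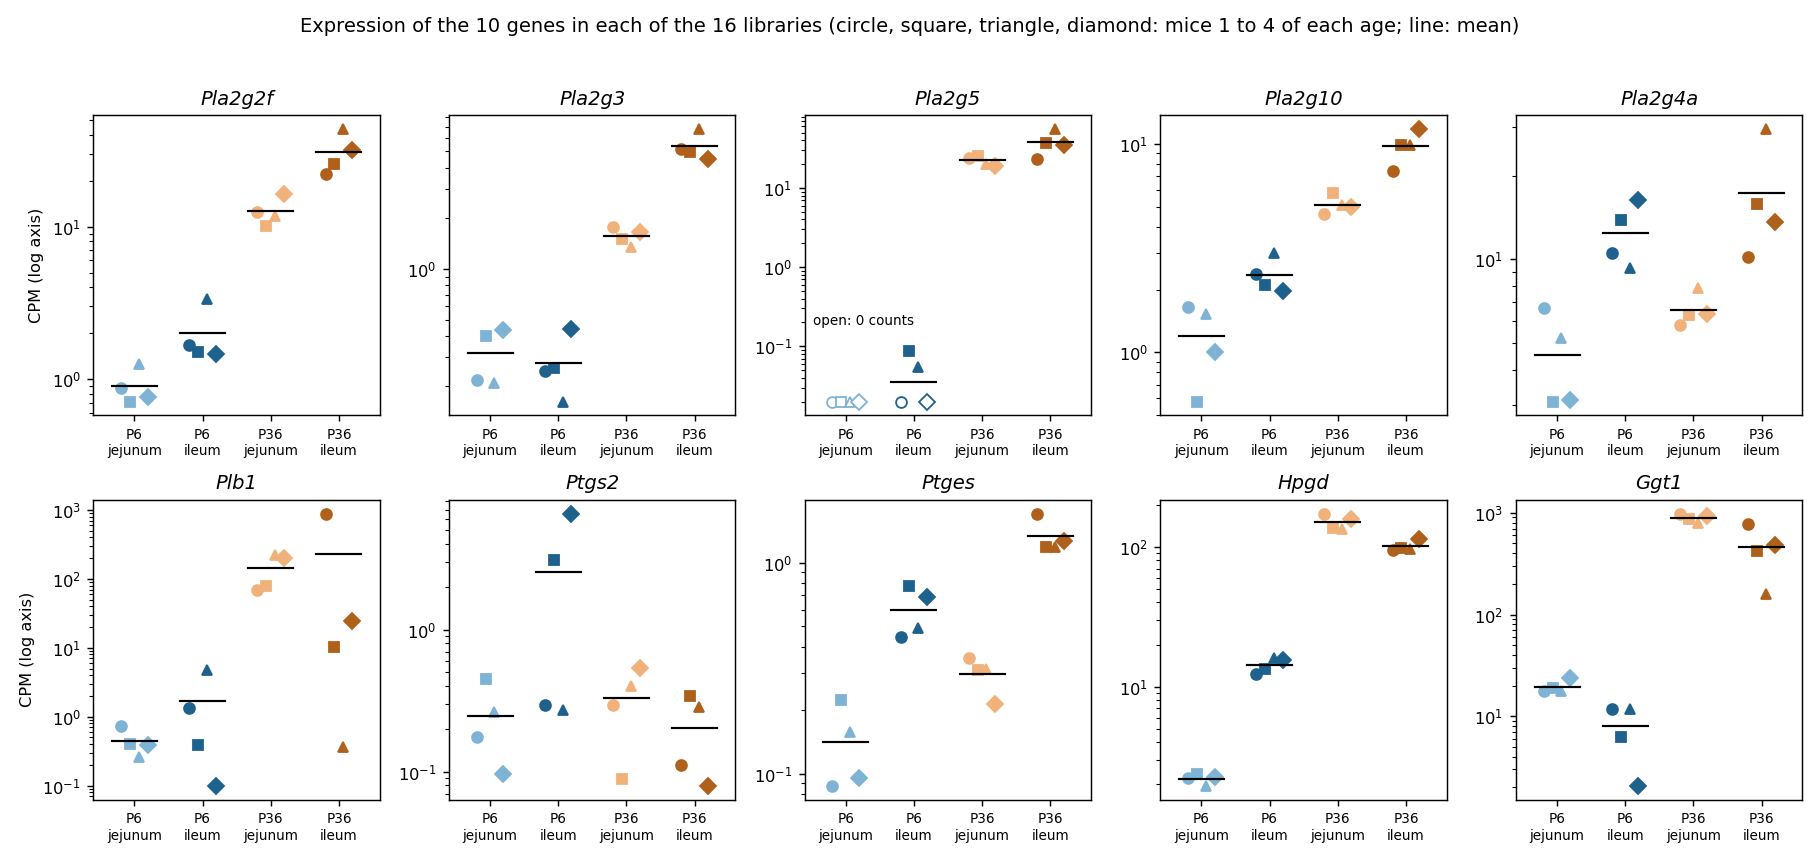
CPM of the 10 genes (log axis) in each of the 16 libraries by group, with a horizontal line at the group mean and a different symbol for each mouse of an age. Open symbols, drawn at the foot of the Pla2g5 panel, are libraries with 0 counts. Pla2g2f, Pla2g3, Pla2g5, Pla2g10, Hpgd and Ggt1 were higher in every P36 library than in every P6 library of the same region, and the P36 ileum libraries spread over 2426-fold for Plb1.

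**Figure D2:**
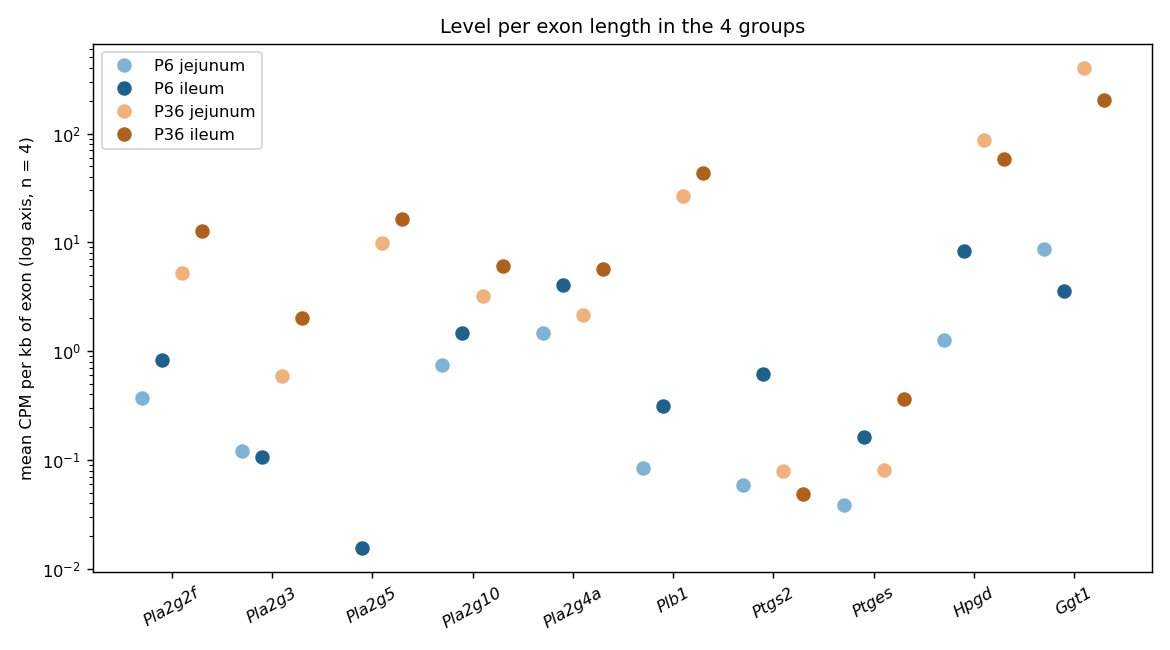
Mean CPM per kb of exon (log axis) of the 10 genes in the 4 groups, n = 4 libraries a group. Pla2g5 had 0 counts in the P6 jejunum and has no point there. Ggt1 had the highest level of the 10 at P36, at 400.1 CPM per kb in the jejunum.

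The 10 genes covered a wide range of levels. Per kb of exon, Ggt1 stood highest at P36, with 400.1 ± 35.5 CPM per kb in the jejunum and 205 ± 114 in the ileum (SD, n = 4 here and below). Hpgd followed among the genes with a tight spread, with 87.7 ± 10.8 CPM per kb in jejunum at P36 and 58.6 ± 5.0 in the P36 ileum. Ptges and Ptgs2 were the lowest of the 10 at P36, at 0.0815 ± 0.0163 and 0.0796 ± 0.0454 CPM per kb in the jejunum. At P6, the highest levels were those of Ggt1 in the jejunum, at 8.73 ± 1.28 CPM per kb, and of Hpgd in the ileum, at 8.27 ± 1.01 CPM per kb.

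With age, most tested members rose, while Pla2g4a passed in neither region. In the jejunum 7 of the 9 tested members rose and 0 fell at an adjusted p below 0.05, when 24.7% of all tested genes rose and 26.9% fell. In the ileum 8 of the 9 rose and 0 fell, when 25.5% of all genes rose and 30.1% fell. All 7 of the jejunal members and 7 of the 8 ileal members also exceeded a log2 fold change of 2, which 7.86% and 6.40% of all genes did in that direction. A gene was kept for testing if at least 4 libraries reached 0.503 CPM. Pla2g3 and Pla2g5 reached it in 0 of the 8 P6 libraries. They were kept through their P36 libraries, so the filter set their direction with age. Plb1 reached it in 3 P6 and 7 P36 libraries, 2 and 3 of them from the ileum. The P36 libraries were thus needed to keep Plb1, which favoured a rise with age. Ptges reached this level in 7 ileal and 0 jejunal libraries and was kept through the ileum. The list was also chosen with earlier results of these data known. The counts are therefore a description of the list.

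Between regions, most members that differed were higher in the ileum at both ages. At P6, 5 of the 9 were higher in the ileum (Pla2g2f, Pla2g10, Pla2g4a, Ptges and Hpgd), when 14.8% of all genes were, and Ggt1 was higher in the jejunum, when 11.1% of all genes were. At P36, 5 were higher in the ileum (Pla2g2f, Pla2g3, Pla2g10, Pla2g4a and Ptges), when 7.80% of all genes were. Hpgd was higher in the jejunum at P36, when 8.30% of all genes were. Ptges is in both ileal counts and was kept for testing through the ileum, so these counts too are a description. The regional difference itself changed with age for Pla2g3 and Hpgd, 2 of the 9 members, when 8.69% of all genes passed this interaction test in either direction. Median log2 fold changes of the 9 members were -1.47 at P6 and -0.93 at P36 for jejunum over ileum, and 3.81 in the jejunum and 3.94 in the ileum for P36 over P6. Over all tested genes the 4 medians lay between -0.05 and -0.01.

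**Figure D3:**
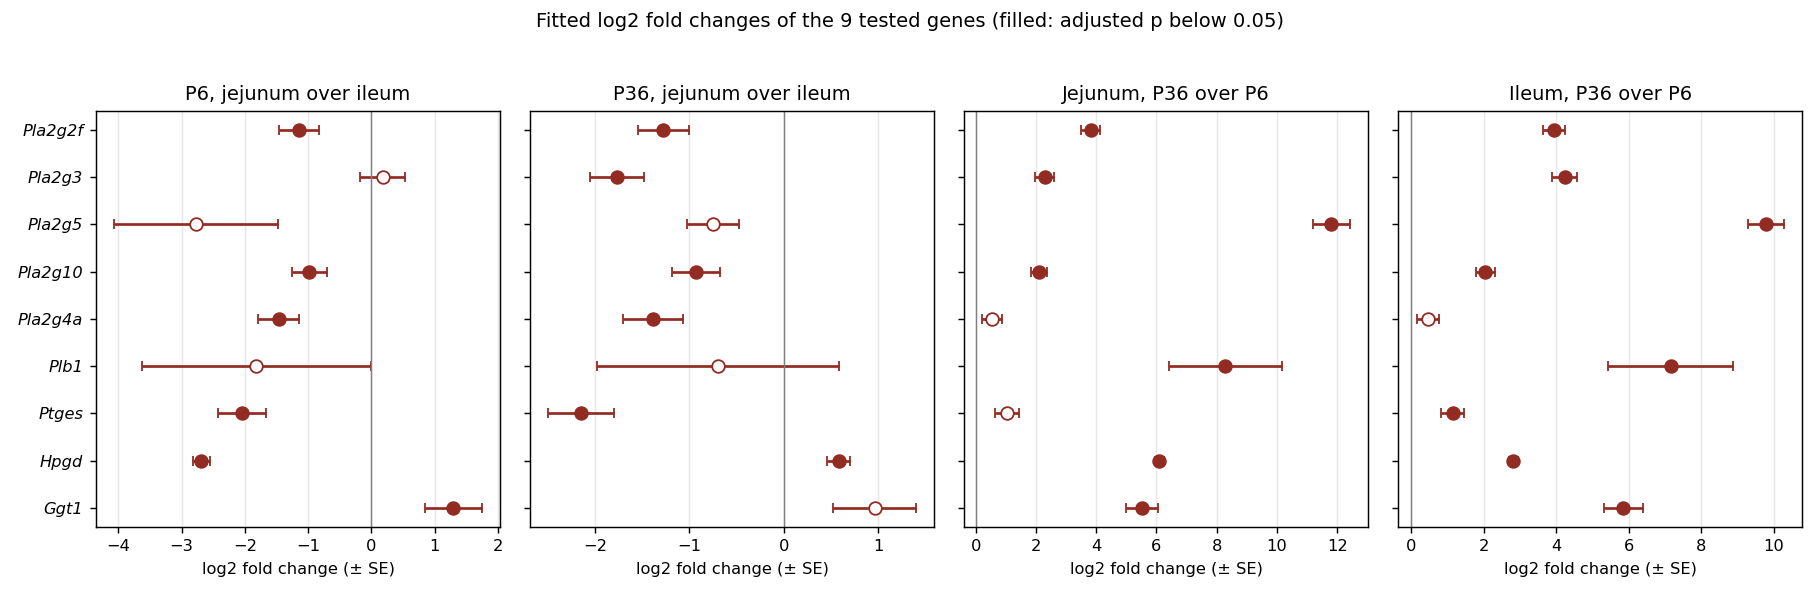
Fitted log2 fold changes with standard errors of the 9 tested members in the 4 comparisons, from edgeR's quasi-likelihood fit. Filled points passed an adjusted p of 0.05. The age panels lie to the right of 0, with Pla2g4a unfilled in both, and Hpgd changes sides between the regional panels.

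Pla2g2f encodes a secreted phospholipase A2 that has been studied mostly in skin. Its levels were 0.873, 0.714, 1.26 and 0.766 CPM in the P6 jejunum of mice 1 to 4 and 1.68, 1.51, 3.36 and 1.47 CPM in the P6 ileum. At P36 they were 12.5, 10.1, 11.8 and 16.4 CPM in the jejunum and 22.0, 25.7, 43.6 and 31.8 CPM in the ileum. The 4 groups did not overlap with their neighbours in this order, and each mouse had more Pla2g2f in the ileum than in the jejunum. Pla2g2f rose 14.0-fold with age in the jejunum, by 3.81 ± 0.32 on the log2 scale (SE, adjusted p = 7.20e-08), and 15.4-fold in the ileum, by 3.94 ± 0.31 (adjusted p = 3.64e-08). It was 2.21-fold higher in the ileum at P6 (adjusted p = 0.0153) and 2.42-fold higher at P36 (adjusted p = 0.00447), and the regional fold changes differed by 0.13 on the log2 scale, with a 95% interval from -0.80 to 1.06. The P6 call was lost in a fit of the P6 libraries alone (adjusted p = 0.0652), with the mouse as a random block (adjusted p = 0.0671), without the ileum of P6 mouse 3 (adjusted p = 0.0518) and without the jejunum of P6 mouse 2 (adjusted p = 0.0502).

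Pla2g5, another member of the cluster on chromosome 4, encodes a secreted phospholipase A2 best known from macrophages and heart. It had 0 counts in all 4 P6 jejunum libraries, which allows up to 0.0352 CPM over the group, and 0, 2, 1 and 0 counts in the P6 ileum. At P36 it reached 24.2, 25.7, 20.2 and 19.1 CPM in the jejunum and 23.0, 36.6, 55.7 and 35.1 CPM in the ileum. Pla2g5 was thus close to undetected in P6 epithelium and present in every P36 library. Against a floor of 3 counts over the group, it was at least 635-fold higher at P36 in the jejunum (adjusted p = 4.77e-09). In the ileum the ratio of pooled counts was 1080, with a counting interval from 369 to 5239 (adjusted p = 3.69e-09). Because Pla2g5 was kept for testing through its P36 libraries, the filter set the direction of both age tests.

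The regions overlapped for Pla2g5 at P36. The log2 fold change of jejunum over ileum was -0.75 ± 0.28 (adjusted p = 0.0866), and the ileum was higher in 3 of 4 mice. This difference passed the threshold in 3 of 18 alternative fits. Among them were those with the mouse as a random block (adjusted p = 0.0181) and without the ileum of P36 mouse 1 (adjusted p = 0.0256).

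Over the 16 libraries, the level of Pla2g5 was most like those of Lyz1, the Paneth cell lysozyme, and Pla2g2a, its neighbour in the cluster, each with a Pearson's r of 0.993 on log2 CPM. These libraries share 2 ages, 2 regions and 8 mice, so the value is a description. RNA of Pla2g2a, a gene of the secreted phospholipase A2 family, was at 0.0563 ± 0.0560 CPM in the P6 jejunum, 0.205 ± 0.067 CPM in the P6 ileum, 36.7 ± 8.7 CPM in jejunum at P36 and 62.6 ± 15.9 CPM in the P36 ileum. Whether this RNA gave active enzyme in these mice was not measured. All 6 Paneth cell markers (Lyz1, Defa17, Defa24, Mmp7, Ang4 and Itln1) were detected in every library. Their sum was 29.0 to 814 CPM in the P6 jejunum, 58.4 to 666 CPM in the P6 ileum, 4418 to 8766 CPM in jejunum at P36 and 5424 to 15143 CPM in the P36 ileum. Itln1 made up most of the upper ends at P6. In P6 mouse 1 it was 782 of 814 CPM (jejunum) and 620 of 666 CPM (ileum). Lyz1 alone ran from 6.03 to 20.3 CPM over all P6 libraries and from 2854 to 10235 CPM over all P36 libraries. The part of Paneth cell abundance in the Pla2g5 result was not tested.

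Pla2g3 encodes a secreted phospholipase A2 of the bee venom type. At P6 it was at 0.218, 0.402, 0.210 and 0.431 CPM in the jejunum and 0.247, 0.258, 0.163 and 0.441 CPM in the ileum, and the regions overlapped. At P36 it was at 1.77, 1.5002, 1.35 and 1.65 CPM in the jejunum and 5.14, 4.93, 6.78 and 4.51 CPM in the ileum, where every mouse had more in the ileum. Pla2g3 rose 4.87-fold in the jejunum (adjusted p = 2.26e-05) and 18.8-fold in the ileum (adjusted p = 3.87e-08). The log2 fold change of jejunum over ileum moved from 0.18 ± 0.36 at P6 to -1.77 ± 0.29 at P36. The difference of 1.95 ± 0.46 passed the interaction test (adjusted p = 0.0148). The P6 levels rest on 27 counts in the jejunum and 23 in the ileum over 4 libraries each, with 3 to 9 counts a library, and the gene was kept for testing through its P36 libraries.

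Pla2g10 encodes a secreted phospholipase A2 with high activity on phosphatidylcholine, which is abundant in bile and diet. Its levels were 1.66, 0.580, 1.52 and 1.01 CPM in jejunum at P6 and 2.37, 2.11, 2.98 and 1.96 CPM in the P6 ileum. At P36 they were 4.59, 5.82, 5.07 and 4.96 CPM in the jejunum and 7.41, 9.92, 9.88 and 11.8 CPM in the ileum. No neighbouring groups overlapped. Pla2g10 rose 4.28-fold with age in the jejunum (2.10 ± 0.28, adjusted p = 1.05e-05) and 4.13-fold in the ileum (2.05 ± 0.27, adjusted p = 9.12e-06). It was 1.97-fold higher in the ileum at P6 (adjusted p = 0.0162) and 1.90-fold higher at P36 (adjusted p = 0.0210). The ileal excess was present in 4 of 4 mice at each age, but the P36 call was lost on leaving out any of 5 of the 8 libraries (ileum of mice 2 and 4, jejunum of mice 1, 3 and 4), with the adjusted p up to 0.0707. The P6 call was lost without the jejunum of mouse 4 (adjusted p = 0.0526) and in a fit of the P6 libraries alone (adjusted p = 0.0953).

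The counts of wider pathway lists below include the members and stand beside the shares of all tested genes. These were 24.7% higher and 26.9% lower with age in jejunum, 25.5% and 30.1% in ileum, and 11.1% higher in jejunum against 14.8% in ileum at P6, or 8.30% against 7.80% at P36. The lists hold 2 to 13 tested genes, no difference between lists was tested, and their counts are a description. Of the wider family of 12 secreted phospholipases A2 and their receptor, 8 were tested, and 5 rose with age in each region while none fell. Those 5 were the 4 secreted members above and Pla2g2a. Pla2g2a was at most 0.296 CPM at P6, so like Pla2g3 and Pla2g5 it was kept through its P36 libraries. The filter thus set its direction with age. Of the other 3, Pla2g12b differed between the ages by 0.27 and 0.32 on the log2 scale in jejunum and ileum, Pla2g12a by 0.04 and -0.02, and Pla2g2d by -0.94 and 0.06, and none of these values passed. Pla2g12b, a catalytically inactive relative with a part in lipoprotein secretion, was higher in the jejunum at P6 (0.89 ± 0.22, adjusted p = 0.00793) and at P36 (0.84 ± 0.22, adjusted p = 0.0172). The regional counts of the list were 1 higher in jejunum and 3 in ileum at P6, and 1 and 4 at P36. Its median log2 fold change was 2.19 with age in the jejunum and 3.00 in the ileum.

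Pla2g4a encodes cytosolic phospholipase A2 alpha, the calcium-dependent enzyme that supplies arachidonic acid for prostaglandin synthesis. Its levels were 6.67, 3.08, 5.20 and 3.11 CPM in jejunum at P6 and 10.5, 13.8, 9.27 and 16.3 CPM in the P6 ileum. At P36 they were 5.83, 6.31, 7.90 and 6.34 CPM in the jejunum and 10.2, 15.8, 29.4 and 13.6 CPM in the ileum. The regions did not overlap at either age, whereas the ages overlapped in both regions. Pla2g4a was 2.76-fold higher in the ileum at P6 (-1.47 ± 0.32 for jejunum over ileum, adjusted p = 0.00333) and 2.62-fold higher at P36 (-1.39 ± 0.32, adjusted p = 0.00717). At P6 the ratio of ileum to jejunum was 4.48 and 5.25 in mice 2 and 4, which share a name prefix, and 1.58 and 1.78 in mice 1 and 3. The ileum of P6 mouse 2 had high stromal markers and that of mouse 4 low Krt8 and Krt19, and their part in these ratios was not tested. The age differences did not pass. Their log2 fold changes were 0.55, with a 95% interval from -0.14 to 1.23, in the jejunum (adjusted p = 0.171) and 0.47, from -0.19 to 1.13, in the ileum (adjusted p = 0.214).

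Plb1 encodes phospholipase B, a brush border enzyme that removes both fatty acids from phospholipids in the lumen. It was below 5 CPM in every P6 library, at 0.742, 0.402, 0.263 and 0.383 CPM in the jejunum and 1.33, 0.388, 4.83 and 0.0981 CPM in the ileum. At P36 the jejunum held 69.6, 79.7, 223 and 200.5 CPM, with both females below both males. The P36 ileum held 892, 10.4, 0.368 and 24.4 CPM. The ileum of mouse 1 thus exceeded every other library, and that of mouse 3 lay within the range of the P6 ileum.

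Plb1 rose 311-fold with age in the jejunum (8.28 ± 1.88, adjusted p = 0.00159) with no overlap of the ages, although with the mouse as a random block the adjusted p was 0.0587. Plb1 was kept for testing through its P36 libraries, which limits the age tests of both regions. In the ileum the fitted log2 fold change was 7.15 ± 1.72 (adjusted p = 0.00230), the ages overlapped, and the value fell to 2.82 without mouse 1 and to an adjusted p of 0.240 with the random block. The regional difference at P36 could not be resolved, at -0.70 with a 95% interval from -3.42 to 2.03 (adjusted p = 0.783). It turned to 3.64 in favour of the jejunum without the ileum of mouse 1 (adjusted p = 0.0225) and to 2.91 and 3.05 with the mouse as a fixed or random block (adjusted p = 0.298 and 0.125). Without that library the interaction of region and age also passed (-5.46, adjusted p = 0.0332), against -1.13 with it (adjusted p = 0.795). Within mice, Plb1 was higher in the jejunum in 3 of 4 at P36, with ratios of jejunum to ileum of 7.68, 605 and 8.22, against 0.0781 in mouse 1.

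Other genes ranked the P36 ileum libraries as Plb1 did. Ggt1, the alkaline phosphatase gene Alpi and the ileal bile acid binding protein gene Fabp6 had the same order, with mouse 1 highest, then mice 4, 2 and 3. Alpi was at 550.2, 168, 43.9 and 203.5 CPM and Fabp6 at 9114, 6647, 3727 and 7683 CPM in mice 1 to 4. Pla2g5 and Pla2g4a had the reverse order, with mouse 3 highest and mouse 1 lowest. Lyz1 was at 3799, 3672, 10235 and 5505 CPM, also highest in mouse 3. Gata4, a transcription factor of the proximal small intestine, was at 31.6, 5.56, 0.735 and 2.295 CPM in these libraries, against 174 to 193 CPM in the P36 jejunum. In the P6 ileum the order of Plb1 (mouse 3, then 1, 2 and 4) was that of Fabp6, at 58.2, 10.9, 74.3 and 6.13 CPM in mice 1 to 4, and the reverse of that of Gata4, at 8.98, 18.4, 3.25 and 34.7 CPM. Orders of 4 libraries are a description, and the part of cell composition or sampling position in them was not tested.

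**Figure D4:**
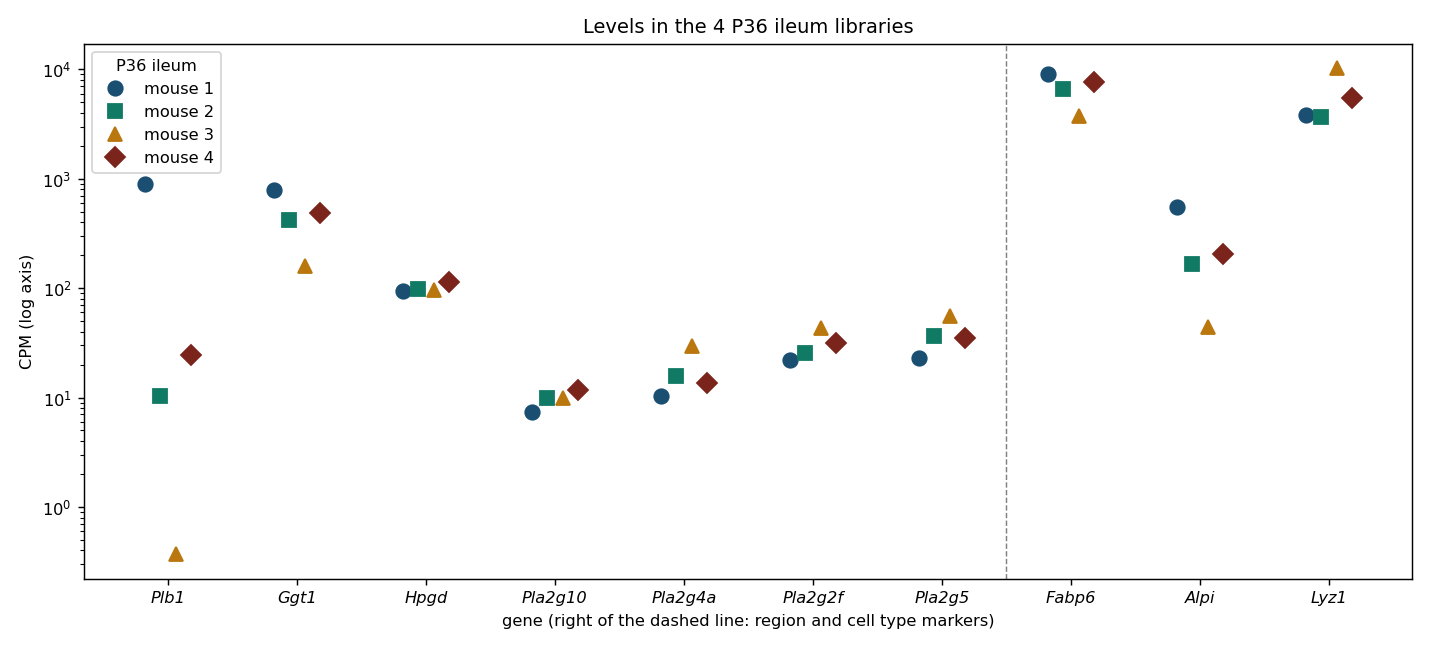
CPM (log axis) of 7 members and of the markers Fabp6, Alpi and Lyz1 in the 4 P36 ileum libraries, with 1 symbol and colour a mouse. Plb1, Ggt1, Fabp6 and Alpi were lowest in mouse 3, which was highest for Pla2g5, Pla2g4a, Pla2g2f and Lyz1, while Hpgd stayed between 94.4 and 113 CPM.

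Over the 16 libraries the level of Plb1 was most like that of Fam151a (Pearson's r 0.973), which in the P36 ileum was at 272, 8.28, 0.572 and 15.1 CPM. A second list held 16 phospholipases A and B, among them Pla2g4a and Plb1, and 13 were tested. In the jejunum 3 rose and 9 fell with age, and likewise in the ileum. The medians of the list were -1.502 and -1.36 on the log2 scale. Pla2g7, the platelet-activating factor acetylhydrolase, fell from 55.3 ± 5.5 to 1.17 ± 0.74 CPM in the jejunum and from 60.6 ± 27.6 to 0.689 ± 0.463 CPM in the ileum (adjusted p = 7.55e-08 and 3.04e-08). Pnpla7, a lysophospholipase, fell from 99.6 ± 9.2 to 9.11 ± 0.37 CPM in the jejunum and from 172 ± 48 to 7.30 ± 0.90 CPM in the ileum (adjusted p = 8.38e-10 and 1.02e-10). Pla2g16 rose by 2.46 and 3.25 and Pla2g4c by 0.96 and 2.45 on the log2 scale in jejunum and ileum. Between regions, 1 gene of this list was higher in jejunum and 4 in ileum at P6, and 1 and 2 at P36.

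Ptgs2 encodes cyclooxygenase 2, the inducible enzyme of prostaglandin synthesis. It was low in all but a pair of libraries. The P6 jejunum held 0.175, 0.446, 0.263 and 0.0958 CPM and the P6 ileum 0.296, 3.10, 0.271 and 6.57 CPM. The P36 jejunum held 0.294, 0.0882, 0.404 and 0.533 CPM and the P36 ileum 0.111, 0.340, 0.286 and 0.0791 CPM. The ileum of P6 mice 2 and 4, with 72 and 134 counts, lay above all 14 other libraries, which had 1 to 10 counts each, and the other P6 ileum libraries lay within the range of the other groups. These are the mice that share a name prefix, and the ratio of ileum to jejunum was 6.95 and 68.6 in them, against 1.70 and 1.03 in mice 1 and 3. Their jejunum was not raised.

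Because of these low counts Ptgs2 was not among the genes tested. In a fit of 18959 genes without a filter, the log2 fold change of jejunum over ileum at P6 was -3.31 ± 0.88 (adjusted p = 0.0138), and -0.19 ± 0.76 without the ileum of mice 2 and 4 (adjusted p = 0.931), which were left out after their values were seen. Without mouse 4 alone it was -2.27 (adjusted p = 0.0561), and without mouse 2 alone -3.16 (adjusted p = 0.0273). The age difference in the ileum moved likewise from -3.52 (adjusted p = 0.00439) to -0.40 (adjusted p = 0.728). The difference therefore rests on those libraries. The ileum of P6 mouse 2 was also the library with high stromal markers, with Col3a1 at 105 CPM, while in that of mouse 4 Col3a1 was at 19.8 CPM and the stromal sum at 40.7 CPM. The ileum of P6 mouse 4 was also the P6 ileum library with low Krt8 and Krt19 and the largest differences from its group. The part of these library differences in the Ptgs2 level was not tested.

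Ptges encodes microsomal prostaglandin E synthase, which makes prostaglandin E2 from the cyclooxygenase product. It was at 0.0873, 0.223, 0.158 and 0.0958 CPM in jejunum at P6 and 0.444, 0.775, 0.488 and 0.687 CPM in the P6 ileum. At P36 it was at 0.353, 0.309, 0.314 and 0.213 CPM in the jejunum and 1.71, 1.19, 1.18 and 1.27 CPM in the ileum. Every mouse had more Ptges in the ileum, and the regions did not overlap at either age. Ptges was 4.13-fold higher in the ileum at P6 (-2.05 ± 0.38 for jejunum over ileum, adjusted p = 0.000979) and 4.43-fold higher at P36 (-2.15 ± 0.35, adjusted p = 0.000493). The difference between these regional fold changes was 0.10, with a 95% interval from -1.38 to 1.59. Ptges rose 2.22-fold with age in the ileum (adjusted p = 0.00721), and in the jejunum the fold of 2.06 did not pass (adjusted p = 0.0553). The jejunal rise passed in 4 of 16 alternative fits. Among them were those with the mouse as a random block (adjusted p = 0.0494) and without the jejunum of P36 mouse 4 or P6 mouse 2 (adjusted p = 0.0440 and 0.0321). All values rest on few counts, from 12 in the P6 jejunum to 97 in the P36 ileum over 4 libraries. Ptges was kept for testing through its ileal libraries, so its regional tests are not independent of that filter.

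Of the 13 genes of prostanoid synthesis, 9 were tested. With age, 3 rose and 2 fell in the jejunum and 2 rose and 3 fell in the ileum, and the median log2 fold changes were 0.05 and -0.42. Hpgds, the hematopoietic prostaglandin D synthase, fell from 139 ± 26 to 0.978 ± 0.425 CPM in the jejunum and from 122 ± 36 to 0.579 ± 0.280 CPM in the ileum (adjusted p = 3.43e-10 and 3.71e-10). Ptgs1, the constitutive cyclooxygenase, was 0.470 ± 0.128 CPM in jejunum at P6 and 1.73 ± 0.40 CPM in the P36 jejunum (1.86 ± 0.67, adjusted p = 0.0299), and its change in the ileum of -1.06 did not pass. Its P6 jejunum mean lay below the 0.503 CPM of the filter, which limits the jejunal test. Fam213b, a prostaglandin F synthase, rose by 2.33 in jejunum and 2.32 in ileum on the log2 scale. Tuft cells are known to express Ptgs1 and Hpgds, and the 7 tuft cell markers in the tables summed to 0.8289 to 4.44 CPM at P6 and 12.0 to 27.1 CPM at P36, with 1 or 2 of them at 0 counts in each library. The 8 macrophage and neutrophil markers summed to 428 to 501 CPM in the P6 jejunum, 157 to 349 CPM in the P6 ileum and 8.74 to 25.5 CPM at P36. Most of the P6 sum was Csf1r, at 152 to 498 CPM at P6, while Adgre1 was at most 2.46 CPM and S100a8 and S100a9 were at 0 counts in the P6 jejunum. The part of these cells in the Hpgds result was not tested. Between regions, 1 gene of the list was higher in jejunum and 3 in ileum at P6, and 1 and 1 at P36.

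Hpgd encodes 15-hydroxyprostaglandin dehydrogenase, which begins the breakdown of prostaglandins. Its levels were 2.22, 2.36, 1.94 and 2.25 CPM in jejunum at P6 and 12.2, 13.3, 15.9 and 15.4 CPM in the P6 ileum. At P36 they were 173, 137, 134 and 159 CPM in the jejunum and 94.4, 98.8, 96.1 and 113 CPM in the ileum. The 4 groups did not overlap, and Hpgd was higher in the ileum of all 4 P6 mice and in the jejunum of all 4 P36 mice. The ratio of ileum to jejunum within a mouse was 5.50, 5.63, 8.21 and 6.84 at P6, whereas the ratio of jejunum to ileum was 1.83, 1.39, 1.40 and 1.40 at P36.

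Hpgd rose 68.4-fold with age in the jejunum (6.10 ± 0.15, adjusted p = 2.90e-13) and 7.07-fold in the ileum (2.82 ± 0.13, adjusted p = 1.15e-10). The log2 fold change of jejunum over ileum was -2.69 ± 0.14 at P6 (adjusted p = 2.97e-09) and 0.58 ± 0.12 at P36 (adjusted p = 0.00374). The difference of -3.27 ± 0.18 between them passed the interaction test (adjusted p = 3.40e-08). These 5 calls held in every fit tried, but at P36 the regional log2 fold change lay below the fold minimum of 2. The spread of Hpgd was small beside these differences, with coefficients of variation from 8.16% to 12.3% in the 4 groups. Its level over the 16 libraries was most like that of Maoa, a monoamine oxidase (Pearson's r 0.994), which was at 3.16 to 4.99 CPM in the P6 jejunum, 31.0 to 53.7 CPM in the P6 ileum, 1203 to 1575 CPM in jejunum at P36 and 607 to 744 CPM in the P36 ileum.

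**Figure D5:**
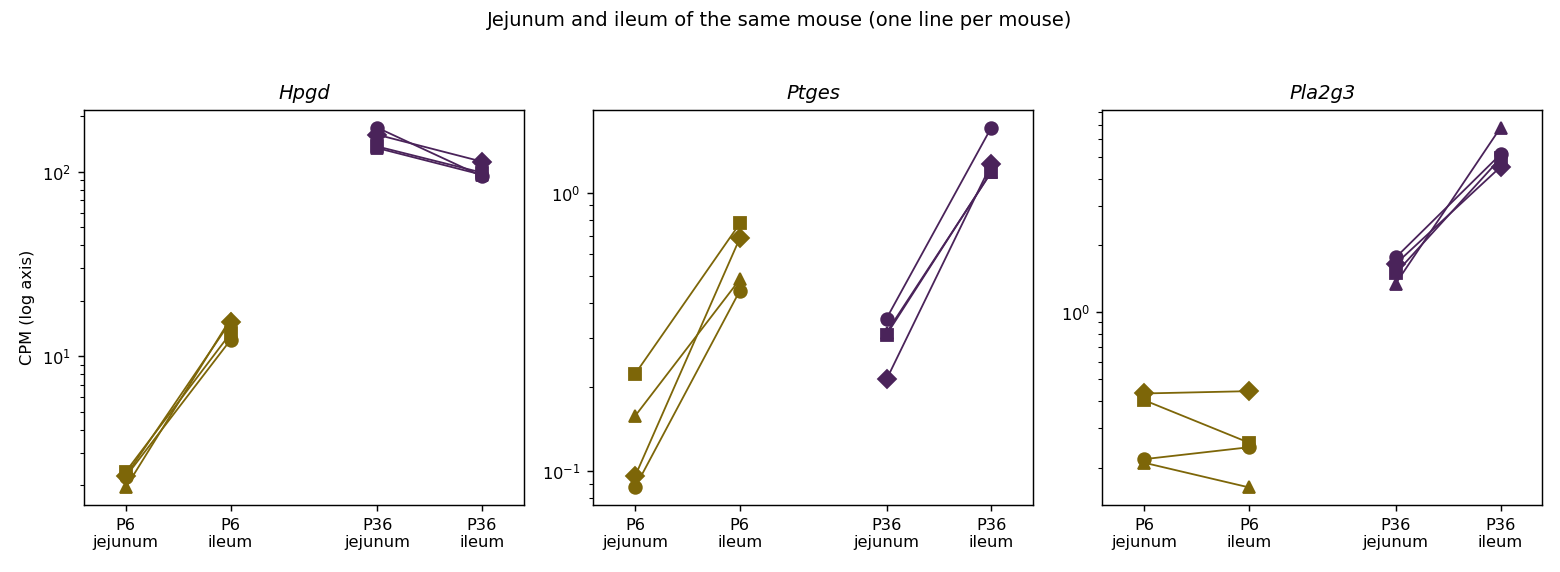
CPM (log axis) of Hpgd, Ptges and Pla2g3 in the jejunum and ileum of the same mouse, with 1 line a mouse, at P6 (left pair) and P36 (right pair). The Hpgd lines run up to the ileum at P6 and down at P36, those of Ptges run up at each age, and those of Pla2g3 run up in all 4 mice at P36 and in 2 of 4 at P6.

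Of the 7 genes of prostaglandin transport and inactivation, 6 were tested, and with age 2 rose and 3 fell in the jejunum and 2 rose and 4 fell in the ileum. Their median log2 fold changes were -0.32 and -0.45. Ptgr1, the reductase that follows Hpgd in the breakdown, rose by 3.07 in jejunum and 1.56 in ileum on the log2 scale (adjusted p = 8.32e-10 and 1.15e-06). Its regional log2 fold change of jejunum over ileum was 0.47 at P6 and 1.98 at P36, and the difference of -1.51 passed (adjusted p = 0.000708), in the same direction as that of Hpgd. Slco2a1, the prostaglandin uptake carrier, fell by 2.28 in jejunum and 2.42 in ileum, and Abcc4, an exporter, fell by 0.81 and 0.89. Between regions, 1 gene of the list was higher in jejunum and 2 in ileum at P6, and 3 and 1 at P36.

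Only 2 of 9 prostanoid receptor genes were tested, and in the jejunum 1 rose and 1 fell with age, while in the ileum neither passed. Their median log2 fold changes with age were 1.45 and 0.01. Ptgdr, a prostaglandin D2 receptor, went from 0.243 ± 0.081 to 2.76 ± 0.68 CPM in the jejunum (adjusted p = 3.13e-06), and Ptger4, a prostaglandin E2 receptor, from 32.6 ± 5.8 to 22.1 ± 2.6 CPM (adjusted p = 0.0248). Ptger4 was also higher in the ileum at P36 (-0.66 ± 0.20 for jejunum over ileum, adjusted p = 0.0306). Ptgdr was higher in the ileum at P6 and in the jejunum at P36. Its mean in the P6 jejunum lay below the 0.503 CPM of the filter. Ptgdr was thus kept for testing through other groups, so its tests against the P6 jejunum are not independent of that filter.

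Ggt1 encodes gamma-glutamyltransferase 1, a surface enzyme that cleaves glutathione and converts leukotriene C4 to leukotriene D4. It was at 17.7, 19.1, 17.7 and 23.7 CPM in jejunum at P6 and 11.9, 6.25, 11.8 and 2.06 CPM in the P6 ileum. At P36 it was at 983, 870.1, 799.6 and 933 CPM in the jejunum and 783, 417, 159 and 482 CPM in the ileum. The jejunum was tight and the ileum spread, by 5.78-fold at P6 and 4.93-fold at P36. Ggt1 rose 45.8-fold in the jejunum (5.52 ± 0.53, adjusted p = 2.90e-07) and 57.6-fold in the ileum (5.85 ± 0.54, adjusted p = 1.99e-07).

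Ggt1 was higher in the jejunum of all 8 mice, and the regions did not overlap at either age. The log2 fold change of jejunum over ileum was 1.29 ± 0.45 at P6 (adjusted p = 0.0456) and 0.96 ± 0.44 at P36 (adjusted p = 0.156). At P6 the ratio of jejunum to ileum was 3.06 and 11.5 in mice 2 and 4, which share a name prefix, and 1.49 and 1.504 in mice 1 and 3. The ileum of P6 mouse 2 had high stromal markers and that of mouse 4 low Krt8 and Krt19, and their part in these ratios was not tested. The regional calls of Ggt1 were unsteady. That of P6 was lost on leaving out any of 6 of the 8 libraries (ileum of mice 2 and 4, and each jejunum), with the adjusted p up to 0.107, and that of P36 was gained without the ileum of mouse 1 (adjusted p = 0.0466) and with the mouse as a random block (adjusted p = 0.0456).

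The next 2 lists each include Ggt1 and Dpep1, so their counts are not independent of each other. Of 19 genes of the lipoxygenase and leukotriene list, 12 were tested, of which 7 rose and 3 fell in the jejunum and 8 rose and 2 fell in the ileum, with medians of 1.22 and 1.64. Dpep1, the dipeptidase that acts after Ggt1 on leukotriene D4, rose by 7.09 and 6.78 on the log2 scale (adjusted p = 5.74e-07 and 8.01e-07), and Mgst2, a leukotriene C4 synthase of broad activity, by 3.30 and 1.55. Ltc4s, the dedicated leukotriene C4 synthase, was at 6.43 ± 1.38 CPM in jejunum at P6 and 0.204 ± 0.245 CPM in the P6 ileum (adjusted p = 2.34e-05). The P6 ileum mean lay below the 0.503 CPM of the filter. Ltc4s was thus kept through other groups, and this test is not independent of the filter. Cysltr1, a receptor of leukotriene D4, was at 25.9 ± 5.1 CPM in the P6 ileum, 1.42 ± 1.23 CPM in jejunum at P6 and 0.0112 ± 0.0224 and 0.0544 ± 0.0380 CPM in jejunum and ileum at P36. Cysltr1 was kept for testing through its P6 libraries, which limits its age tests. In this list 5 genes were higher in jejunum and 3 in ileum at P6, and 5 and 0 at P36.

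Of 13 genes of the gamma-glutamyl cycle and glutathione synthesis, 11 were tested, and 6 rose and 3 fell with age in the jejunum and 6 rose and 4 fell in the ileum, with medians of 1.33 and 0.68. Gclm and Gss, of glutathione synthesis, fell in both regions, by 1.55 and 0.95 in the jejunum and 1.94 and 1.12 in the ileum on the log2 scale. Gclc, the catalytic subunit, fell by 1.44 in the ileum (adjusted p = 0.000776), and its change of 0.61 in the jejunum did not pass. Oplah, which opens 5-oxoproline, rose by 1.33 in the jejunum (adjusted p = 0.0100) and fell by 2.00 in the ileum (adjusted p = 0.000551), and its interaction passed (-3.33 ± 0.56, adjusted p = 0.00138). Between regions, 5 genes of the list were higher in jejunum and 2 in ileum at P6, and 2 and 0 at P36.

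The members followed the age difference to different extents across the 16 libraries. Pearson's r of log2 CPM was 0.963 between Pla2g2f and Pla2g5 and 0.961 between Pla2g2f and Pla2g10, but 0.363 between Pla2g5 and Pla2g4a and -0.340 between Pla2g5 and Ptgs2. The libraries share ages, regions and mice, and these values carry no test. The genes most like Pla2g2f were Rnf145 (0.986) and Bhlha15 (0.984), a transcription factor of secretory cells. Those most like Pla2g10 were Bmp3 and Myo5c (0.974 each), and those most like Pla2g3 were 1810065E05Rik (0.984) and Arntl (0.97502), a core clock gene. Ptges was most like Prss23 (0.964) and Dfna5 (0.960), and Ggt1 most like Stk16 (0.994) and Letm1 (0.992). The second nearest gene was Zzef1 for Plb1 (0.954) and Efnb2 for Hpgd (0.989).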

How the data were processed

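Per the labels and the study's methods, the authors made stranded mRNA libraries, used Trimmomatic 0.38 for adapter removal, mapped reads on mm10 by STAR (2.5.3 in the submitters' processing notes) and counted read pairs per gene on exons with featureCounts (Subread 1.6.3, reverse strand). The deposited values are raw counts of 24421 genes, of which 18959 had a count.

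Genes were filtered with filterByExpr, scaled by TMM and tested in edgeR 4.0.16 (R 4.3.3) with the quasi-likelihood method, in a model of 16 libraries with 4 group means. P-values were Benjamini-Hochberg adjusted over 13429 genes and passed below 0.05. SE is the log2 fold change divided by the square root of F, and intervals are 95%. CPM used TMM-scaled totals, and log2 CPM a prior count of 2. Intervals on pooled counts and the floor of 3 counts cover counting error only. The edgeR script was tested on simulated counts. Alternatives were DESeq2 1.42.0, median-of-ratios scaling, library totals, no filter or a mean CPM of 1, the compared groups alone, sex as a covariate, a robust prior, a fold minimum, leaving out each library, and the mouse as a fixed block or, in limma 3.58.1 (voom), a random block.

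The same mouse gave jejunum and ileum. Deviations from group means correlated within mice, with r from 0.157 to 0.391 at P6 and from 0.240 to 0.347 at P36. Between different mice r ran from -0.284 to 0.120 at P6 and from -0.367 to 0.232 at P36. No replicate pair was a copy of another (chi-square per gene 13.2 to 272).

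The 10 members, 7 pathway lists and 12 marker lists were chosen with earlier results of these data known. Named genes were all members, up to 4 further genes a pathway list with the smallest adjusted p by age and up to 2 by region, the 2 genes most correlated with each tested member (those of Pla2g4a are not reported here), and markers. Fabp6 and Gata4 levels were added after the values were seen.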

Additional observations from a re-analysis of the deposited data

Results flagged for a closer look

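In 3 groups of 4 libraries, 1 library lay far enough from the others to exceed Dixon's 95% critical value, which chance does in about 1 of 20 groups. With 39 sets of a gene and a group checked, 3 is close to the number that chance would give. Pla2g2f was at 3.36 CPM in the ileum of P6 mouse 3, against 1.47 to 1.68 CPM in the other P6 ileum libraries. Plb1 was at 892 CPM in the ileum of P36 mouse 1, against 0.368 to 24.4 CPM in the others. Ptges was at 1.71 CPM in the same library, against 1.18 to 1.27 CPM.

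For 2 members the regional difference changed between the ages by the interaction test of edgeR. The log2 fold change of jejunum over ileum was 1.95 higher at P6 than at P36 for Pla2g3 (adjusted p = 0.0148), and the value for Hpgd, P6 minus P36, was -3.27 (adjusted p = 3.40e-08).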

How the results depend on the processing

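Over the members' fold changes under each alternative, 792 kept their direction and their side of the threshold, 21 lost the call, 10 gained it and 27 changed sign. At P6 the member higher in the jejunum (Ggt1) was lost, giving 0, with the fold minimum of 2, with library totals in place of TMM and with only the compared groups fitted, and leaving out a library gave 0 to 1. The 5 higher in the ileum became 2 with the fold minimum and 3 with only the compared groups, and was 4 with the random replicate block and 4 to 5 on leaving out a library. At P36 the count higher in the jejunum was 0 with the fold minimum, 2 with the random replicate block of mice and 1 to 3 on leaving out a library (3 without the ileum of mouse 1), and the count higher in the ileum was 1 with the fold minimum, 6 with the random block and 4 to 6 on leaving out a library. In the age comparison of the ileum, 1 member (Ptgs2) was higher at P6 than at P36 without a filter, against 0 in the main fit. Without a filter, Ptgs2 also passed as higher in the ileum than in the jejunum at P6 (-3.31 for jejunum over ileum, adjusted p = 0.0138). Members with a more negative regional fold change at P6 numbered 1 to 2 on leaving out a library. Without the ileum of P6 mouse 2, chosen after seeing the data, 2 further genes of the wider lists had an interaction more positive at P6. The cause of these moves was not tested, apart from the fewer genes that a fold minimum can pass.

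Signs changed for values that had not passed. These were Plb1 at P36 (2.91 with the fixed and 3.05 with the random replicate block, and -1.11 to 3.64 on leaving out a library), Pla2g3 at P6 (-0.11 with library totals and -0.016 to 0.48 on leaving out a library) and interactions. On leaving out a library, interactions ran from -0.085 to 0.47 for Pla2g2f, -0.26 to 0.18 for Pla2g10, -0.47 to 0.11 for Pla2g4a, -5.46 to 0.26 for Plb1, -0.21 to 0.28 for Ptges and -0.053 to 0.62 for Ggt1, and that of Ptges was -0.058 with library totals. Pairing of the regions by mouse as a fixed block changed no other call. Library totals moved the median of all genes from -0.05 to -0.33 at P6. Depth limits Ptgs2, Ptges, Pla2g3 and Pla2g5 at P6.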
